A study of Danio rerio with 19 samples.

Results

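The homozygous effect of the dyrk1a line was set against that of the scn1lab line in single larval zebrafish heads. For each gene the log2 change of homozygous (HOM) over wild-type (WT) libraries was taken in each line, and the scn1lab change was subtracted from the dyrk1a change. The libraries were chosen by their genotype labels alone and number 13 of the 19 in the series: 4 dyrk1a HOM, 3 dyrk1a WT, 3 scn1lab HOM and 3 scn1lab WT. The heterozygous libraries entered only as an alternative. In a difference written as dyrk1a minus scn1lab, a positive value means that the dyrk1a effect lay above the scn1lab effect, which can come from a gain in dyrk1a or from a loss in scn1lab.

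The dyrk1a HOM and WT larvae came from crosses between fish heterozygous for the Δ77 allele of dyrk1aa and the Δ8 allele of dyrk1ab, and the scn1lab HOM and WT larvae from crosses between fish heterozygous for the scn1lab Δ44 allele. The label HOM of the dyrk1a line does not state whether both gene copies were homozygous. Larvae were siblings or cousins, and each library holds the RNA of 1 head without its eyes. The labels give no age, no clutch for a library, and no word on which of the 2 RNA kits it was made with. P-values therefore measure the spread between heads, part of which may be technical. The scn1lab columns carry a date tag in their headers and the dyrk1a columns do not, and what the date stands for is not given. For a level compared across the lines, line and any batch behind that tag cannot be told apart. Each HOM group was set against the WT libraries of its own line, and the lines share no library.

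The gene scn1lab encodes a voltage-gated sodium channel of the family that carries the nerve impulse, and is related to human SCN1A, whose loss causes childhood epilepsy. DYRK1A is a protein kinase with many nuclear and cell cycle targets, and loss of a copy of the human gene causes a small head and intellectual disability. Immediate early genes such as FOS and EGR1 are a common readout of recent nerve cell activity, since firing switches on their transcription within minutes. Symbols below are those of the gene name table, which writes many zebrafish genes in capitals, and an Ensembl ID stands beside a symbol that several IDs share.

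Total counts in M were 19.1 ± 2.37 in dyrk1a HOM (SD, n = 4), 21.7 ± 2.55 in dyrk1a WT, 20.8 ± 2.26 in scn1lab HOM and 24.5 ± 0.874 in scn1lab WT (SD, n = 3 each), and 21903 genes passed the low count filter. The source label reads whole brain and the protocol larval heads, and nerve cell markers were present in every library. STMN2 (ENSDARG00000070537), a tubulin-binding protein of growing nerve fibres, stood at 266, 233, 318 and 345 CPM (counts scaled to library size, with TMM factors) in dyrk1a HOM and 268, 295 and 273 CPM in dyrk1a WT. It stood at 43.9, 77.6 and 73.3 CPM in scn1lab HOM and 212, 150 and 176 CPM in scn1lab WT. RNA of other tissues was present unevenly. The share of counts of digestive organ genes was 11.4% for HOM1, 0.161% for HOM2 and 15.2% for HOM3 of scn1lab, and at most 0.744% in any of the other 10 libraries. scn1lab HOM1 and HOM3 also stood apart on the first principal component of the most variable genes, which held 54.2% of the variance of those genes. Results are therefore also given for scn1lab HOM2, which is free of that excess, and with HOM1 and HOM3 left out. Fewer cells of a type and less RNA per cell cannot be told apart in RNA of whole heads.

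The targeted genes showed no difference past the threshold. scn1lab stood at 3, 4.7, 7.7 and 6.12 CPM in dyrk1a HOM and 6.03, 5.83 and 6.65 CPM in dyrk1a WT, and at 16.5, 16.5 and 6.34 CPM in scn1lab HOM and 17.9, 16.7 and 19.7 CPM in scn1lab WT. Its log2 difference was 0.27 (SE 0.52, edgeR adjusted p = 0.858). DYRK1A (ENSDARG00000023814) stood at 41.9, 40.9, 51.6 and 62.4 CPM in dyrk1a HOM and 38.7, 36.6 and 40.2 CPM in dyrk1a WT, and every HOM library lay above every WT library (log2 difference between the lines 0.85, SE 0.28, edgeR adjusted p = 0.17). DYRK1A (ENSDARG00000063570) stood at 15.8, 22, 25.8 and 7.35 CPM in dyrk1a HOM and 9.21, 18.4 and 11.7 CPM in dyrk1a WT, with overlap (1.12, SE 0.54, edgeR adjusted p = 0.339). In the scn1lab line ENSDARG00000023814 had a mean of 34.1 CPM in HOM and 48.2 CPM in WT. ENSDARG00000063570 had a mean of 11.9 CPM in scn1lab HOM and 18.9 CPM in scn1lab WT. Both differences thus include a lower mean in scn1lab HOM. A short deletion need not lower the count of a gene, so these levels do not check the genotypes.

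The homozygous effects differed past the threshold in 46 genes, 0.21% of those tested (edgeR quasi-likelihood test, Benjamini-Hochberg adjusted p under 0.05). In 40 of them (0.183%) the dyrk1a effect lay above the scn1lab effect, and in 6 (0.0274%) below it. At an unadjusted p under 0.05 the counts were 2057 genes (9.39%) above and 1370 (6.25%) below. All 46 genes also passed the threshold within scn1lab, where HOM and WT libraries did not overlap for any of them, against 35.6% of all genes tested. In dyrk1a 0 of the 46 passed, and HOM and WT libraries did not overlap for 14 of them, against 7.51% of all genes. The 40 genes all had a negative scn1lab effect and the 6 all had a positive one. The dyrk1a effect was smaller in size than the scn1lab effect in 45 of the 46, and 28 had opposite signs in the lines. The 46 genes were picked by the difference in these same libraries. Their separation and signs within each line therefore follow in part from that choice and are no separate result.

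Within each line the count of genes past the threshold was 0 in dyrk1a and 2744 (12.5%) in scn1lab, 1008 (4.6%) higher and 1736 (7.93%) lower in HOM. At an unadjusted p under 0.05 the scn1lab count was 6336 (28.9%). The 0 in dyrk1a came from edgeR, where 1505 genes (6.87%) had an unadjusted p under 0.05. DESeq2 called 112 genes higher and 33 lower, and limma-voom called 0. The DESeq2 calls include fitted log2 effects of 23.2 for MFSD4A, -21.0 for si:dkey-35h6.1 and -23.9 for amy2al2, too large to read as effect sizes. The median size of the log2 effect was 0.291 in dyrk1a and 0.58 in scn1lab, and the effect was over 1 on the log2 scale in 2607 genes (11.9%) in dyrk1a and 6441 genes (29.4%) in scn1lab. With RLE size factors in place of TMM, 35 genes passed for the difference, 0 in dyrk1a and 2778 in scn1lab.

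The count of 46 depended on single libraries in both lines. It was 6 without scn1lab HOM1, 245 without HOM2, 22 without HOM3, and 13, 15 and 15 without scn1lab WT1, WT2 and WT3. It was 33 without dyrk1a HOM1, 50 without HOM2, 24 without HOM3 and 12 without HOM5, and 6, 9 and 5 without dyrk1a WT1, WT2 and WT4. With scn1lab HOM1 and HOM3 both left out it was 12, a fit in which HOM2 alone stood for its group and was assumed to vary like the other groups. The count within scn1lab was 908 without HOM1, 1470 without HOM3, 1518 without WT2 and 786 without WT3, and that within dyrk1a was 1 without HOM3, 1 without WT1 and 3 without WT2. The log2 difference of each of the 46 genes kept its sign in every alternative in which it was given. Among genes described below, those most often past the threshold were egr4 in 24 of 24 alternatives, BTG2 in 23, FOS (ENSDARG00000031683) and pmchl in 21 and JUNB (ENSDARG00000104773) in 20. Least often past it were C1QL2 and smtlb, each in 3 of 23 alternatives. TFAP2E and EBF3 passed in 5 of 24, TFAP2D and BAIAP2L1 in 6, and map6b, gabrz and KRT222 in 7.

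**Figure D1:**
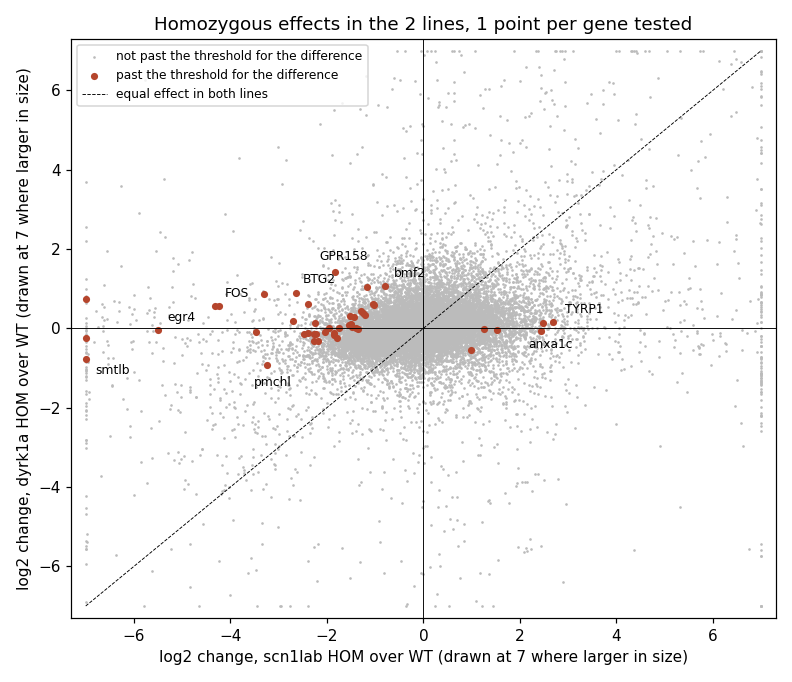
Each point is 1 gene, with its scn1lab effect (log2 HOM over WT) on the horizontal axis and its dyrk1a effect on the vertical axis, and the 46 genes past the threshold for the difference are coloured; effects beyond the axis limit are drawn at its edge. The called genes lie far out along the scn1lab axis and mostly near 0 on the dyrk1a axis.

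Across genes the effects pointed the same way more often than not. Of 21776 genes with a change other than 0 in both lines, 13252 (60.9%) had the same sign, with Pearson's r of 0.291 and Spearman's rho of 0.297 across genes, which are not independent replicates. Among the 11221 genes with a mean of at least 10 CPM, rho was 0.375. Among 2742 genes called in scn1lab, 2088 (76.1%) had the same sign in dyrk1a and rho was 0.556. That rho pools genes called higher with genes called lower. Within a direction rho was 0.225 for those called higher (Pearson's r -0.037) and 0.328 for those called lower (Pearson's r 0.332). The 1736 genes called lower in scn1lab had a median log2 change of -0.21 in dyrk1a and -1.31 in scn1lab, and the 1006 called higher had 0.20 in dyrk1a and 1.2 in scn1lab. Without the members of the 9 lists of other tissues 21351 genes were left and rho was 0.296. So few genes were dropped that this value says little about the part of other tissues. With scn1lab HOM1 and HOM3 left out, rho was 0.195. At an unadjusted p under 0.05 in both lines, 205 genes were higher in both and 236 lower in both, while 66 were higher in dyrk1a HOM and lower in scn1lab HOM and 26 the other way round.

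Several immediate early genes fell in scn1lab HOM and lay near or above their WT level in dyrk1a HOM. Of 50 members tested, 7 differed past the threshold, all with the dyrk1a effect above the scn1lab effect, where 0.183% of all genes did. Their median log2 difference was 0.86, against 0.03 over all genes tested; the median effect was 0.11 in dyrk1a and -0.50 in scn1lab. Within scn1lab 13 members (26%) fell past the threshold and 1 (2%) rose, against 7.93% and 4.6% of all genes. Within dyrk1a 0 passed and 6 had an unadjusted p under 0.05, all higher, against 4.11% of all genes. The effects had the same sign in 20 of the 50.

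The zinc finger transcription factor egr4 stood at 13.8, 9.61, 29.1 and 22.5 CPM in dyrk1a HOM and 17.1, 21.4 and 19.6 CPM in dyrk1a WT. In the scn1lab line it stood at 4.69, 3.76 and 7.49 CPM in HOM and 210, 164 and 349 CPM in WT. The dyrk1a groups overlapped fully, and the scn1lab groups were far apart, with HOM2 the lowest library of all. The log2 difference was 5.46 (SE 0.58, edgeR adjusted p = 0.00641), made up of -0.05 in dyrk1a (SE 0.37) and -5.50 in scn1lab (SE 0.48). It passed the threshold in each fit that left out 1 library.

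FOS (ENSDARG00000031683), a subunit of the AP-1 transcription factor, stood at 23.5, 18.8, 15.5 and 14.1 CPM in dyrk1a HOM and 11, 11.8 and 13.4 CPM in dyrk1a WT. It stood at 7.71, 7.03 and 23.2 CPM in scn1lab HOM and 280, 143 and 332 CPM in scn1lab WT. The dyrk1a HOM libraries all lay above their WT libraries and the scn1lab HOM libraries all lay below theirs. The log2 difference was 4.89 (SE 0.62, edgeR adjusted p = 0.0113), and the dyrk1a effect alone was 0.57 (SE 0.40, unadjusted p = 0.179). The call was lost without dyrk1a WT1 (edgeR adjusted p = 0.0708), WT2 (0.0538) or WT4 (0.0581).

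JUNB (ENSDARG00000104773), a partner of FOS in AP-1, stood at 65, 81.8, 74.2 and 69.4 CPM in dyrk1a HOM and 69.6, 62.2 and 66.9 CPM in dyrk1a WT, and at 47.7, 44 and 58.2 CPM in scn1lab HOM and 234, 161 and 311 CPM in scn1lab WT. Its log2 difference was 2.37 (SE 0.30, edgeR adjusted p = 0.0101). JUNB (ENSDARG00000074378) was at 16.2, 19.2, 14.3 and 15.9 CPM in dyrk1a HOM and 11.8, 13.4 and 14.3 CPM in dyrk1a WT, and at 21, 16.8 and 14.2 CPM in scn1lab HOM and 41.4, 47.7 and 60.9 CPM in scn1lab WT (1.84, SE 0.29, edgeR adjusted p = 0.0334). In both genes the scn1lab groups were separate.

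BTG2, an antiproliferative gene that is also a p53 target, was the immediate early gene with the largest dyrk1a effect among these 7. It stood at 106, 60, 70.9 and 54 CPM in dyrk1a HOM and 39.2, 36.6 and 40.9 CPM in dyrk1a WT, and at 20.9, 23.5 and 35 CPM in scn1lab HOM and 186, 111 and 197 CPM in scn1lab WT. The groups were separate in both lines and in opposite directions. The effect was 0.90 in dyrk1a (SE 0.27, unadjusted p = 0.00541, not past the adjusted threshold) and -2.63 in scn1lab (SE 0.30, edgeR adjusted p = 0.00139), a log2 difference of 3.54 (SE 0.40, edgeR adjusted p = 0.00641).

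The early response gene ier2b stood at 5.86, 8.35, 6.28 and 9.29 CPM in dyrk1a HOM and 5.93, 4.27 and 4.43 CPM in dyrk1a WT, and at 4.2, 6.68 and 9.14 CPM in scn1lab HOM and 37.2, 22.5 and 46 CPM in scn1lab WT (log2 difference 3.01, SE 0.47, edgeR adjusted p = 0.0325). The transcription factor egr1 stood at 24.2, 37, 32.1 and 33.6 CPM in dyrk1a HOM and 33.9, 26.2 and 29.3 CPM in dyrk1a WT, and at 31.1, 32.2 and 35.3 CPM in scn1lab HOM and 112, 71.6 and 104 CPM in scn1lab WT (1.63, SE 0.28, edgeR adjusted p = 0.046). Members just outside the threshold were ier2a at 2.09 (edgeR adjusted p = 0.0504), NR4A2 (ENSDARG00000044532) at 2.15 (0.12) and NPAS4 (ENSDARG00000055752) at 4.33 (0.17). For egr1, the scn1lab HOM libraries lay among the dyrk1a libraries, and the scn1lab WT libraries lay above all of them.

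For all 7 of these genes the 3 scn1lab WT libraries lay above all 10 other libraries. Of the 40 genes with a positive difference, the scn1lab WT libraries lay above all dyrk1a libraries in 10, below them in 6, and overlapped their range in 24. The scn1lab HOM libraries lay below all dyrk1a libraries in 33 and overlapped their range in 7. Among these early genes, the scn1lab HOM libraries lay below all dyrk1a libraries for egr4, BTG2 and JUNB (ENSDARG00000104773). For FOS (ENSDARG00000031683), ier2b, egr1 and JUNB (ENSDARG00000074378) they overlapped the dyrk1a range, so the level that set the lines apart was that of scn1lab WT. Whether handling or a batch moved the WT level was not tested.

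**Figure D2:**
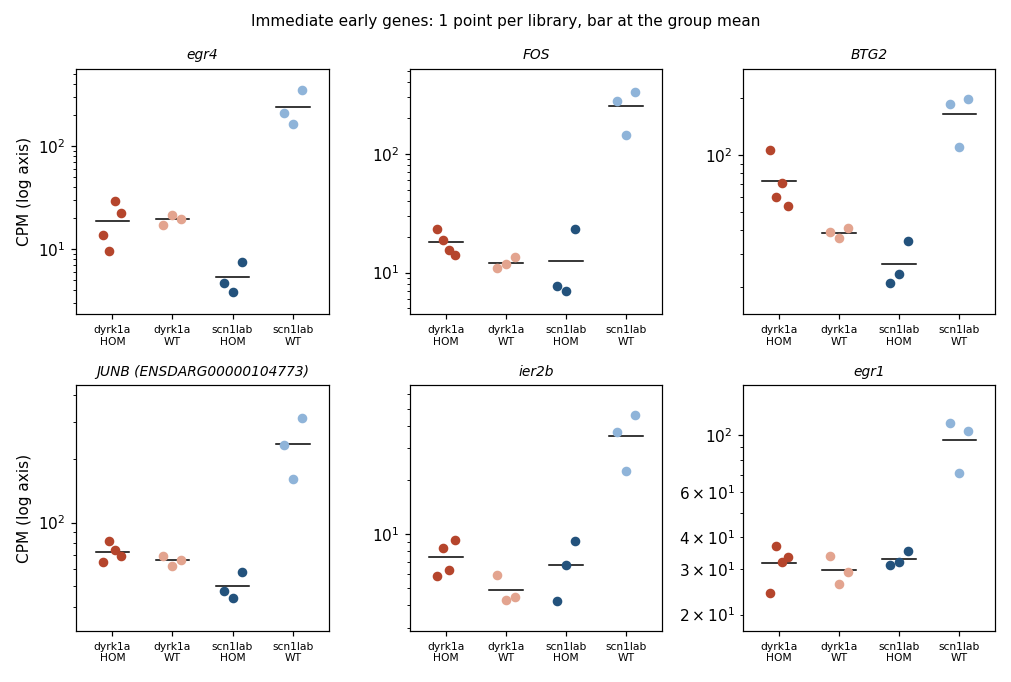
CPM on a log axis of immediate early genes in dyrk1a HOM, dyrk1a WT, scn1lab HOM and scn1lab WT, 1 point per library with a bar at the group mean. The scn1lab WT points of egr4 lie at 164 to 349 CPM, those of scn1lab HOM at 3.76 to 7.49 CPM, and those of both dyrk1a groups between them.

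Gene lists of nerve cell transmission had negative medians in both lines, smaller in size in dyrk1a than in scn1lab. Synaptic vesicle and release machinery had 78 members tested with a median log2 effect of -0.18 in dyrk1a and -1.48 in scn1lab, a median difference of 1.24. Within scn1lab 47 of the 78 fell past the threshold, against 7.93% of all genes. For the difference 2 passed (2.56%, against 0.183% of all genes). HOM lay below WT without overlap for 64 in scn1lab, against 19.8% of all genes, and for 9 in dyrk1a, against 3.67%. In dyrk1a 6 had an unadjusted p under 0.05 and lower, against 2.76% of all genes, and 1 higher. The effects had the same sign in 63. These genes took 0.507%, 0.49%, 0.858% and 0.744% of the counts in dyrk1a HOM and 0.766%, 0.819% and 0.848% in dyrk1a WT. They took 0.16%, 0.28% and 0.139% in scn1lab HOM and 0.587%, 0.635% and 0.82% in scn1lab WT, so the scn1lab groups were separate, with HOM2 included, and the dyrk1a groups overlapped. As the mean log2(CPM + 1) over the list, dyrk1a HOM1 and HOM2 stood at 4.41 and 4.37, below the dyrk1a WT libraries at 4.96, 4.95 and 5.03, while dyrk1a HOM3 and HOM5 stood at 4.99 and 4.98, among them. The dyrk1a median ran from -0.35 without dyrk1a HOM5 to -0.11 without dyrk1a HOM2.

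SNAP25 (ENSDARG00000058117), part of the complex that fuses vesicles with the membrane, stood at 519, 429, 629 and 657 CPM in dyrk1a HOM and 712, 663 and 715 CPM in dyrk1a WT, and at 90.5, 130 and 100 CPM in scn1lab HOM and 340, 632 and 484 CPM in scn1lab WT. It was lower in every HOM library than in every WT library of both lines, by -0.32 in dyrk1a (SE 0.22, not past the threshold) and by -2.18 in scn1lab (SE 0.24, edgeR adjusted p = 0.00139). The log2 difference was 1.86 (SE 0.33, edgeR adjusted p = 0.0479). SYT2 (ENSDARG00000025206), which senses calcium to trigger release, stood at 58.8, 70.7, 128 and 116 CPM in dyrk1a HOM and 90.2, 117 and 96.1 CPM in dyrk1a WT, and at 12.9, 15.5 and 18.6 CPM in scn1lab HOM and 94.1, 66 and 85.2 CPM in scn1lab WT (2.27, SE 0.39, edgeR adjusted p = 0.046).

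The 44 genes of GABAergic transmission, the main inhibitory system, had a median of -0.27 in dyrk1a and -1.57 in scn1lab, where 18 fell past the threshold (40.9%, against 7.93% of all genes). Of the 44 genes, 1 (2.27%, against 0.183% of all genes) passed for the difference, the GABA-A receptor subunit gene gabrz (3.38, SE 0.60, edgeR adjusted p = 0.0483). It stood at 7.68, 6.88, 11.6 and 11.7 CPM in dyrk1a HOM and 7.71, 9.86 and 12.8 CPM in dyrk1a WT, and at 0.701, 1.68 and 2.85 CPM in scn1lab HOM and 18.2, 26.2 and 14.2 CPM in scn1lab WT. GAD1 (ENSDARG00000027419), which makes GABA, had a difference of 1.76 (edgeR adjusted p = 0.0862).

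Other transmitter systems showed the same order of medians with 0 members past the threshold for the difference. For 58 glutamatergic genes the medians were -0.30 in dyrk1a and -1.22 in scn1lab (15 lower and 1 higher past the threshold in scn1lab, where 7.93% of all genes were lower), and for 9 glycinergic genes -0.28 in dyrk1a and -1.51 in scn1lab (3 lower). For 24 cholinergic genes they were -0.11 in dyrk1a and -1.35 in scn1lab (8 lower), for 37 dopaminergic genes -0.16 in dyrk1a and -0.86 in scn1lab (4 lower), and for 42 serotonergic and noradrenergic genes -0.28 in dyrk1a and -0.73 in scn1lab (5 lower). The counts of the dopaminergic list and of the serotonergic and noradrenergic list are near the share of all genes that fell in scn1lab. All 9 glycinergic genes had a negative effect in both lines. Voltage-gated channels followed: 37 calcium channel genes had medians of -0.40 in dyrk1a and -1.46 in scn1lab (11 lower past the threshold), 66 potassium channel genes -0.40 in dyrk1a and -1.05 in scn1lab (13 lower), and 22 sodium channel genes -0.28 in dyrk1a and -1.06 in scn1lab (8 lower). The glutamatergic median in dyrk1a was -0.61 without dyrk1a HOM3 and -0.13 without dyrk1a HOM1, and that of the calcium channels -0.56 without dyrk1a HOM3 and -0.20 without dyrk1a HOM1. The median difference over these lists ran from 0.52 for serotonergic and noradrenergic genes to 1.22 for cholinergic genes.

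Genes of neuronal transcription had a smaller negative median in dyrk1a than in scn1lab. Of 66 genes of neuronal transcription and differentiation 34 fell past the threshold in scn1lab (51.5%, against 7.93% of all genes). Their medians were -0.12 in dyrk1a and -1.2 in scn1lab over the 66, and 0 passed for the difference. In dyrk1a 47 of the 66 had a negative effect, and HOM lay below WT without overlap for 5, against 3.67% of all genes, while in scn1lab HOM lay below WT without overlap for 42, against 19.8%. Of 34 cerebellar genes 22 fell in scn1lab (64.7%, against 7.93% of all genes), with medians of -0.20 in dyrk1a and -1.10 in scn1lab, and again 0 passed for the difference. The forkhead factor FOXB1 (ENSDARG00000089042), which belongs to no list, stood at 39.6, 30.1, 45.4 and 47.1 CPM in dyrk1a HOM and 41, 51.7 and 42.6 CPM in dyrk1a WT, and at 5.81, 9.21 and 5.65 CPM in scn1lab HOM and 47.5, 34 and 33.7 CPM in scn1lab WT (2.32, SE 0.34, edgeR adjusted p = 0.0267). The scn1lab HOM libraries lay below all others, and the other 3 groups shared a range. Further transcription factors past the threshold, named after their values were seen, were TFAP2D at 2.08 (SE 0.37, edgeR adjusted p = 0.0483), TFAP2B at 1.96 (SE 0.33, 0.0448), TFAP2E at 1.73 (SE 0.31, 0.0483), SCRT1 at 1.95 (SE 0.28, 0.0267) and EBF3 at 1.68 (SE 0.30, 0.0493). Each fell past the threshold in scn1lab.

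The neuropeptide gene pmchl, a precursor of melanin-concentrating hormone made in hypothalamic nerve cells, was lower in HOM of both lines. It stood at 121, 144, 170 and 152 CPM in dyrk1a HOM and 296, 248 and 285 CPM in dyrk1a WT. It stood at 18.3, 20 and 14 CPM in scn1lab HOM and 148, 196 and 154 CPM in scn1lab WT. HOM and WT were separate in both lines, and the scn1lab WT libraries overlapped the dyrk1a HOM libraries. The effect was -0.91 in dyrk1a (SE 0.17, unadjusted p = 0.000138, edgeR adjusted p = 0.38) and -3.25 in scn1lab (SE 0.20, edgeR adjusted p = 1.39e-05). The log2 difference of 2.34 (SE 0.26, edgeR adjusted p = 0.00641) passed without each of the 13 libraries in turn. It did not pass in 3 other alternatives, among them HOM1 and HOM3 of scn1lab both left out (0.0684) and all 19 libraries in the fit (0.38).

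The 55 neuropeptide precursors had medians of -0.31 in dyrk1a and -1.0 in scn1lab. In dyrk1a 9 had an unadjusted p under 0.05, all lower, and in scn1lab 18 fell and 3 rose past the threshold. Of all genes, 2.76% were lower at that unadjusted p in dyrk1a. In scn1lab 7.93% of all genes fell and 4.6% rose past the threshold. The 3 that rose, 5.45% of the list, are near that share. The relaxin family peptide rln3a stood at 37.3, 38.2, 50.5 and 77.3 CPM in dyrk1a HOM and 102, 57.3 and 63.6 CPM in dyrk1a WT, and at 5.39, 5.99 and 3.68 CPM in scn1lab HOM and 81.1, 25.8 and 80.6 CPM in scn1lab WT (3.09, SE 0.59, edgeR adjusted p = 0.0593). The stress hormone CRH, at 1.28 (edgeR adjusted p = 0.097), and the feeding peptide NPY, at 1.39 (0.127), were likewise outside the threshold. For npvf, a precursor of RFamide peptides, the effects were -1.53 in dyrk1a (unadjusted p = 0.0122) and -1.78 in scn1lab (edgeR adjusted p = 0.064).

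Pituitary hormone genes, 15 in number, had the highest median difference among the lists, 1.90, with -0.57 in dyrk1a and -2.40 in scn1lab. Of these, 10 fell past the threshold in scn1lab (66.7%, against 7.93% of all genes). For the difference 1, smtlb, passed (6.67%, against 0.183% of all genes, edgeR adjusted p = 0.0483). The somatolactin gene smtlb stood at 1.45, 1.31, 1.46 and 2.97 CPM in dyrk1a HOM and 3.28, 3.78 and 2.1 CPM in dyrk1a WT, at 0 counts in all 3 scn1lab HOM libraries, and at 0.998, 2.28 and 3.99 CPM in scn1lab WT. Against a floor of 3 counts per library it was at least 13.2-fold lower in scn1lab HOM than in scn1lab WT. C1QL2, whose mouse counterpart is a secreted synaptic protein, stood at 1.64, 1.06, 2.27 and 0.838 CPM in dyrk1a HOM and 1.4, 2.14 and 1.64 CPM in dyrk1a WT, was at 0 in scn1lab HOM, and stood at 0.998, 2.87 and 1.89 CPM in scn1lab WT. It was at least 10.5-fold lower in scn1lab HOM than in scn1lab WT, and its difference passed as well (edgeR adjusted p = 0.0483). Growth hormone gene gh1 (2.1, edgeR adjusted p = 0.0931) did not pass.

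Several genes past the threshold were higher in dyrk1a HOM and lower in scn1lab HOM, with separate groups in both lines. GPR158 (ENSDARG00000079665), a receptor of nerve cells, stood at 6.93, 9.1, 21 and 9.87 CPM in dyrk1a HOM and 5.06, 4.27 and 3.82 CPM in dyrk1a WT, and at 2.73, 6.44 and 3.87 CPM in scn1lab HOM and 15.8, 15.2 and 15.6 CPM in scn1lab WT. Its effects were 1.42 in dyrk1a (SE 0.39, unadjusted p = 0.00303) and -1.83 in scn1lab (SE 0.41, edgeR adjusted p = 0.0151), a difference of 3.25 (SE 0.57, edgeR adjusted p = 0.0479). The other ID of that symbol, ENSDARG00000077134, named after its values were seen, had effects of -1.26 in dyrk1a and -2.06 in scn1lab and a difference of 0.81.

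The microtubule-associated protein gene map6b stood at 16.6, 20.2, 22 and 19.9 CPM in dyrk1a HOM and 8.97, 10.9 and 8.71 CPM in dyrk1a WT, and at 3.57, 6.98 and 7.8 CPM in scn1lab HOM and 14.4, 11.3 and 15.7 CPM in scn1lab WT (log2 difference 2.21, SE 0.39, edgeR adjusted p = 0.0479). The cell death gene bmf2, of the BH3-only group of the BCL2 family, stood at 25.9, 27.8, 33.6 and 39.1 CPM in dyrk1a HOM and 12.1, 13.9 and 18.9 CPM in dyrk1a WT, and at 7.14, 7.43 and 8.44 CPM in scn1lab HOM and 13.4, 11.6 and 15 CPM in scn1lab WT (1.88, SE 0.32, edgeR adjusted p = 0.0448). Both lay above WT in dyrk1a HOM and fell past the threshold in scn1lab HOM: map6b by 1.04 in dyrk1a (SE 0.27, unadjusted p = 0.00171) and -1.17 in scn1lab (SE 0.28, edgeR adjusted p = 0.0197), and bmf2 by 1.08 in dyrk1a (SE 0.22, unadjusted p = 0.000278) and -0.80 in scn1lab (SE 0.23, edgeR adjusted p = 0.0403). The tubulin gene tubb5 followed that pattern outside the threshold, at 150, 142, 170 and 220 CPM in dyrk1a HOM and 104, 79.6 and 69.5 CPM in dyrk1a WT, and at 40.8, 51.6 and 50.5 CPM in scn1lab HOM and 136, 65.8 and 76 CPM in scn1lab WT (1.97, SE 0.37, edgeR adjusted p = 0.0566). DESeq2 called tubb5, bmf2 and map6b in both lines, with opposite signs.

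The kinase gene MAP4K4 had an effect of 0.19 in dyrk1a and of -2.70 in scn1lab. It stood at 14.9, 16, 28.7 and 16.2 CPM in dyrk1a HOM and 15.9, 16.1 and 18.1 CPM in dyrk1a WT, and at 0.841, 1.53 and 0.634 CPM in scn1lab HOM and 7.57, 5.77 and 6.48 CPM in scn1lab WT (2.88, SE 0.47, edgeR adjusted p = 0.039). Both scn1lab groups lay below every dyrk1a library.

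**Figure D3:**
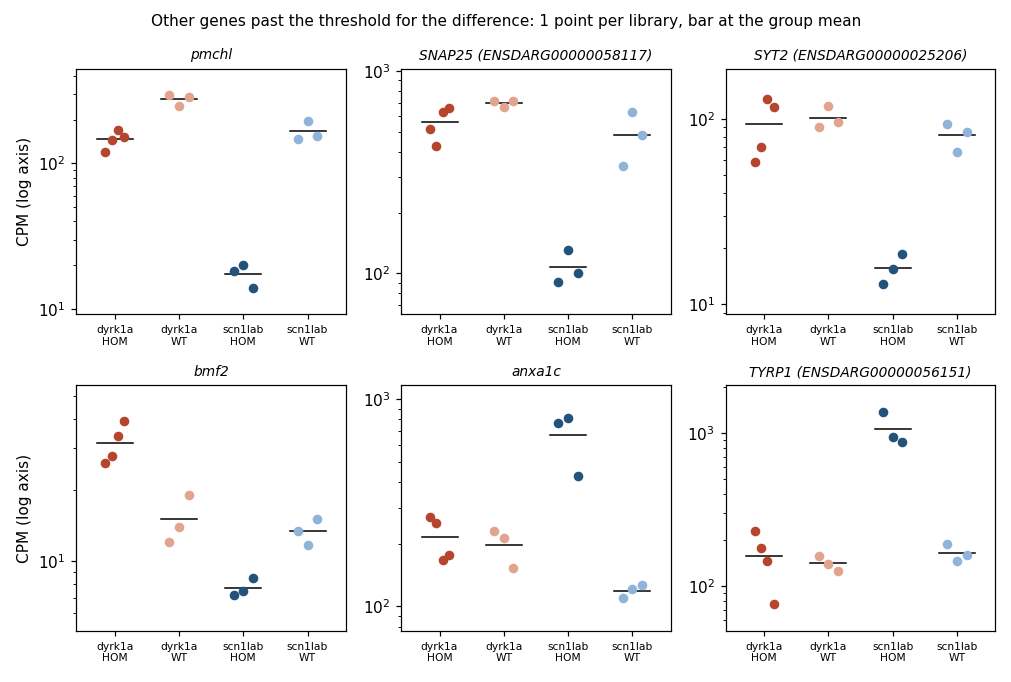
CPM on a log axis of 6 genes past the threshold for the difference, 1 point per library with a bar at the group mean. SNAP25 and SYT2 are low in scn1lab HOM, bmf2 is high in dyrk1a HOM and low in scn1lab HOM, and anxa1c and TYRP1 are high in scn1lab HOM.

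The 6 genes whose dyrk1a effect lay below the scn1lab effect included skin and pigment genes, and all rose past the threshold in scn1lab HOM, where their 3 libraries lay above every dyrk1a library. The annexin anxa1c, of the skin list, stood at 270, 252, 168 and 177 CPM in dyrk1a HOM and 231, 214 and 153 CPM in dyrk1a WT, and at 769, 812 and 425 CPM in scn1lab HOM and 109, 121 and 127 CPM in scn1lab WT (-2.37, SE 0.36, edgeR adjusted p = 0.0325). TYRP1 (ENSDARG00000056151), a melanin-making enzyme, stood at 229, 177, 145 and 76.5 CPM in dyrk1a HOM and 158, 139 and 126 CPM in dyrk1a WT, and at 1366, 940 and 874 CPM in scn1lab HOM and 188, 146 and 159 CPM in scn1lab WT (-2.54, SE 0.43, edgeR adjusted p = 0.0448). The dyrk1a groups overlapped in both genes.

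The pigment granule protein gene pmela stood at 49.2, 48.5, 38.1 and 17.4 CPM in dyrk1a HOM and 45, 39.5 and 35.8 CPM in dyrk1a WT, and at 409, 342 and 301 CPM in scn1lab HOM and 49.9, 58.9 and 84.7 CPM in scn1lab WT (-2.51, SE 0.44, edgeR adjusted p = 0.0483). KRT222 stood at 18.9, 23.6, 25.3 and 25.3 CPM in dyrk1a HOM and 30.3, 35.1 and 36.4 CPM in dyrk1a WT, and at 48.8, 59.6 and 47.3 CPM in scn1lab HOM and 21.7, 24 and 32.4 CPM in scn1lab WT. It was the gene of these 6 whose groups were separate in both lines, in opposite directions: -0.54 in dyrk1a (SE 0.18, unadjusted p = 0.0099) and 0.99 in scn1lab (SE 0.20, edgeR adjusted p = 0.00818), a difference of -1.54 (SE 0.27, edgeR adjusted p = 0.0465).

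BAIAP2L1 (ENSDARG00000029305), which shapes actin at the cell membrane, stood at 33.1, 28, 24.9 and 22.1 CPM in dyrk1a HOM and 32.1, 29.2 and 22.2 CPM in dyrk1a WT, and at 44.6, 45.6 and 43.1 CPM in scn1lab HOM and 17.9, 13.4 and 15.3 CPM in scn1lab WT (-1.56, SE 0.27, edgeR adjusted p = 0.0479). The interleukin signalling factor stat6 stood at 27.1, 34.8, 28.7 and 29.6 CPM in dyrk1a HOM and 32, 30.4 and 28.7 CPM in dyrk1a WT, and at 88.3, 80.5 and 66.4 CPM in scn1lab HOM and 34.8, 32.7 and 30.5 CPM in scn1lab WT (-1.28, SE 0.21, edgeR adjusted p = 0.0448). In both genes the dyrk1a groups overlapped and the scn1lab groups were separate. Over whole lists, the medians were 0.22 in dyrk1a and 0.88 in scn1lab for 66 skin genes (16 higher and 2 lower past the threshold in scn1lab) and -0.05 in dyrk1a and 0.23 in scn1lab for 36 pigment cell genes (4 higher, 1 lower), with 2 members of each past the threshold for the difference. For the difference the 2 members were 3.03% of the skin list and 5.56% of the pigment list, against 0.0274% of all genes. Of all genes 4.6% were higher and 7.93% lower past the threshold in scn1lab, and the lower genes of both lists were below that share. Pigment cell genes took 0.192%, 0.181% and 0.126% of the counts in scn1lab HOM and 0.0666%, 0.0769% and 0.0769% in scn1lab WT. The skin share was 6.63%, 8.24% and 3.87% for the scn1lab HOM libraries and 5.28%, 3.3% and 5.31% for the scn1lab WT libraries, with overlap. The part of these skin shares in the single genes was not tested.

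DNA replication genes had higher values in dyrk1a HOM than in dyrk1a WT, without passing the adjusted threshold. Of 61 members tested 60 had a positive dyrk1a effect, with a median of 1.18 in dyrk1a, 0.13 in scn1lab and 0.87 for the difference. No member passed the adjusted threshold in edgeR in dyrk1a or for the difference. At an unadjusted p under 0.05, 44 of the 61 were higher in dyrk1a HOM, against 4.11% of all genes, and 20 had a higher effect in dyrk1a than in scn1lab, against 9.39% of all genes. The dyrk1a groups did not overlap, with HOM above WT, for 24 of the 61, against 3.84% of all genes. DESeq2 called 17 of 62 members higher in dyrk1a HOM, against 112 of 22252 genes, and 3 of 58 higher for the difference, against 720 of 16631 genes, which is near the share of all genes. In scn1lab 1 member (1.64%) passed in each direction, below the shares of all genes, 4.6% higher and 7.93% lower. The median dyrk1a effect stayed between 1.0 and 1.49 in 25 alternatives.

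The large subunit of ribonucleotide reductase, RRM1, which makes DNA building blocks, stood at 42, 45.3, 38 and 44.7 CPM in dyrk1a HOM and 22.9, 18.6 and 14.6 CPM in dyrk1a WT, and at 19.5, 18.7 and 19.4 CPM in scn1lab HOM and 22.9, 13 and 17.6 CPM in scn1lab WT. Every dyrk1a HOM library lay above all 9 others. The effect was 1.18 in dyrk1a (SE 0.21, unadjusted p = 0.000101, edgeR adjusted p = 0.38) and 0.11 in scn1lab, and the difference was 1.07 (edgeR adjusted p = 0.137). Thymidine kinase, TK1, stood at 15.5, 17.4, 11.8 and 15.5 CPM in dyrk1a HOM and 7.04, 4.72 and 4.51 CPM in dyrk1a WT, and at 8.69, 6.54 and 8.18 CPM in scn1lab HOM and 6.86, 3.96 and 4.59 CPM in scn1lab WT. Its effects were 1.47 in dyrk1a (unadjusted p = 0.000156) and 0.60 in scn1lab.

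The helicase subunit MCM2 stood at 88.1, 94.2, 49.4 and 40.9 CPM in dyrk1a HOM and 32.9, 18.7 and 15.2 CPM in dyrk1a WT, and at 16.4, 15.8 and 28.2 CPM in scn1lab HOM and 16.5, 17.2 and 27 CPM in scn1lab WT. Its partner MCM6 (ENSDARG00000057683) stood at 66.5, 92.4, 40.5 and 48.8 CPM in dyrk1a HOM and 30.8, 21.2 and 12.8 CPM in dyrk1a WT, and at 12.7, 12.4 and 20.6 CPM in scn1lab HOM and 14.3, 14.5 and 17.2 CPM in scn1lab WT. The dyrk1a effects were 1.61 for MCM2 (unadjusted p = 0.000908) and 1.52 for MCM6 (unadjusted p = 0.000629), the scn1lab effects were -0.01 for both, and the differences were 1.62 (edgeR adjusted p = 0.175) and 1.53 (0.163). PRIM1, a DNA primase subunit, stood at 11.9, 11.1, 6.24 and 11.2 CPM in dyrk1a HOM and 4.1, 3.16 and 3.44 CPM in dyrk1a WT, and at 5.39, 5.35 and 6.47 CPM in scn1lab HOM and 6.15, 3.81 and 4.52 CPM in scn1lab WT (dyrk1a effect 1.5, unadjusted p = 0.000278). In all of these, dyrk1a HOM and WT were separate and scn1lab HOM and WT overlapped.

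Mitosis, spindle and kinetochore genes had similar values. Of 79 members tested 76 had a positive dyrk1a effect, the median was 1.06 in dyrk1a and 1.05 for the difference, and 0 passed the adjusted threshold for either. In scn1lab the median was -0.02, and its sign turned in 8 of 25 alternatives. At an unadjusted p under 0.05, 46 were higher in dyrk1a HOM, against 4.11% of all genes, and 1 was lower. At that level 20 had a higher effect in dyrk1a than in scn1lab, against 9.39% of all genes. The dyrk1a median ran from 0.82 without dyrk1a WT4 to 1.57 without dyrk1a WT1. As the mean log2(CPM + 1) over the list, dyrk1a WT1 stood at 3.88, close to dyrk1a HOM3 at 3.91. DESeq2 called 5 of 79 members higher in dyrk1a HOM, and 4 of 74 higher for the difference, the second again near the share of all genes. For the mitotic regulator MYBL2 the effects were 2.0 in dyrk1a (unadjusted p = 0.000905) and 0.88 in scn1lab. The chromatin protein gene hmgb2b, abundant in dividing cells, stood at 1050, 938, 713 and 1405 CPM in dyrk1a HOM and 664, 478 and 383 CPM in dyrk1a WT, and at 196, 228 and 251 CPM in scn1lab HOM and 293, 237 and 216 CPM in scn1lab WT (difference 1.16, edgeR adjusted p = 0.153).

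DNA replication genes took 0.192%, 0.223%, 0.157% and 0.186% of the counts in dyrk1a HOM and 0.133%, 0.0985% and 0.0808% in dyrk1a WT. They took 0.0688%, 0.103% and 0.063% in scn1lab HOM and 0.0938%, 0.0824% and 0.0885% in scn1lab WT. The dyrk1a groups were separate, the scn1lab groups overlapped, and the dyrk1a HOM shares lay above all others. The 50 genes of neural progenitors and Notch signalling had medians of 0.13 in dyrk1a and -0.20 in scn1lab, with 1 higher and 3 lower past the threshold in scn1lab and 0 for the difference. Both scn1lab counts are below the shares of all genes, 4.6% higher and 7.93% lower. Whether a larger share of dividing cells or more RNA per dividing cell goes with the replication genes was not tested.

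**Figure D4:**
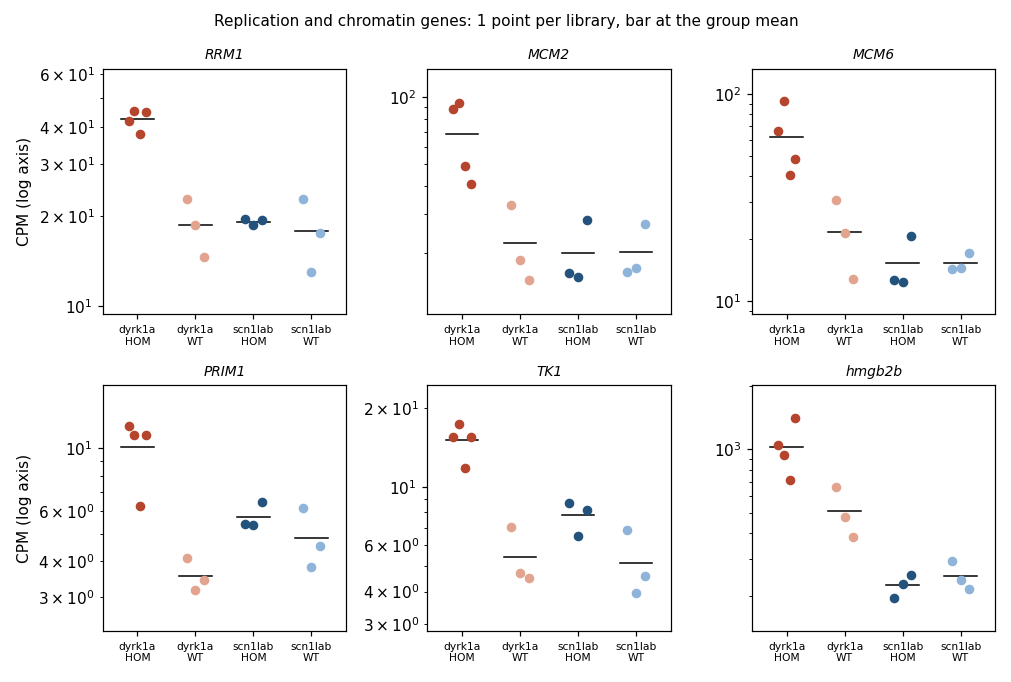
CPM on a log axis of 6 replication and chromatin genes, 1 point per library with a bar at the group mean. The dyrk1a HOM points lie above those of the other 3 groups except for PRIM1 in HOM3, and for RRM1 at 38 to 45.3 CPM against 13 to 22.9 CPM.

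Some genes were higher in HOM of both lines. REL, an NF-kB subunit, stood at 24.6, 42.4, 48 and 37 CPM in dyrk1a HOM and 17.8, 15.6 and 10.6 CPM in dyrk1a WT, and at 28.7, 26.3 and 19.9 CPM in scn1lab HOM and 8.15, 7.14 and 7.32 CPM in scn1lab WT. The effects were 1.38 in dyrk1a (SE 0.26, unadjusted p = 0.000133) and 1.73 in scn1lab (SE 0.27, edgeR adjusted p = 0.00362), and their difference of -0.35 did not pass (edgeR adjusted p = 0.69). HOM and WT were separate in both lines. DESeq2 called REL in both lines (adjusted p = 0.000334 in dyrk1a and 1.89e-07 in scn1lab).

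The interferon regulatory factor irf1a stood at 3.84, 6.42, 15.9 and 3.48 CPM in dyrk1a HOM and 1.01, 2.26 and 1.07 CPM in dyrk1a WT, and at 20.4, 18.3 and 5.33 CPM in scn1lab HOM and 1.33, 1.26 and 2.59 CPM in scn1lab WT. Its effects were 2.35 in dyrk1a (unadjusted p = 0.00305) and 3.08 in scn1lab (edgeR adjusted p = 0.0142). The replication helicase subunit GINS2 had effects of 1.51 in dyrk1a (unadjusted p = 0.00228) and 1.56 in scn1lab (edgeR adjusted p = 0.0307), and the chemokine gene ccl20a.3 had 2.29 in dyrk1a (unadjusted p = 0.0169) and 3.16 in scn1lab (edgeR adjusted p = 0.0375). DESeq2 called 21 genes in both lines, 17 of them in the same direction, irf1a and GINS2 among them. Among the 21 is ENSDARG00000113150, with fitted log2 effects of -22.8 in dyrk1a and 22.7 in scn1lab, likewise too large to read as effect sizes.

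Others were lower in HOM of both lines beside pmchl. AK5, an adenylate kinase of the brain, stood at 23.6, 28.7, 44.4 and 28 CPM in dyrk1a HOM and 55.6, 51.8 and 56.8 CPM in dyrk1a WT, and at 21.7, 19.3 and 19.7 CPM in scn1lab HOM and 45.4, 41.9 and 42.8 CPM in scn1lab WT. Its effects were -0.81 in dyrk1a (unadjusted p = 0.000938) and -1.10 in scn1lab (edgeR adjusted p = 0.00679). The synaptic adhesion gene LRRC4C (ENSDARG00000113411) had -0.96 in dyrk1a and -1.43 in scn1lab, and the channel gene TRPC4 (ENSDARG00000070507) -0.92 in dyrk1a and -1.73 in scn1lab. In AK5 the groups were separate in both lines.

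Cytosolic ribosomal protein genes had the same sign in both lines in 78 of 78. Their median effect was 0.36 in dyrk1a and 0.53 in scn1lab, and the median difference was -0.16, with 0 members past the threshold for the difference. In scn1lab 8 rose past the threshold (10.3%, against 4.6% of all genes), and HOM lay above WT without overlap for 71, against 15.7%. In dyrk1a 5 had an unadjusted p under 0.05, all higher, against 4.11% of all genes, and HOM and WT overlapped for all 78. As the mean log2(CPM + 1) over the list, dyrk1a HOM1, HOM2 and HOM5 stood at 9.12, 8.95 and 9.35. These lay above dyrk1a WT at 8.88, 8.50 and 8.54, while dyrk1a HOM3, at 8.44, lay below every dyrk1a WT library. Oxidative phosphorylation genes had the same sign in 74 of 83, with medians of 0.33 in dyrk1a and 0.29 in scn1lab, 2 higher past the threshold in scn1lab and 0 for the difference. Their median difference of 0.03 turned sign in 8 of 24 alternatives. The 2 that rose in scn1lab are 2.41% of the list, below the 4.6% of all genes.

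Photoreceptor and retina genes were low in HOM of both lines relative to the WT means, though the eyes had been removed. The median effect over 59 members was -2.33 in dyrk1a and -3.84 in scn1lab, 54 had the same sign, 5 fell past the threshold in scn1lab and 0 passed for the difference. Those 5 are 8.47% of the list, near the 7.93% of all genes that fell in scn1lab. The share of counts was 0.132%, 0.118%, 0.137% and 0.116% in dyrk1a HOM and 0.562%, 0.112% and 0.267% in dyrk1a WT, and 0.0418%, 0.158% and 0.0478% in scn1lab HOM and 0.0627%, 1.53% and 1.18% in scn1lab WT. The groups were not separate in either line: dyrk1a WT2 lay below its HOM libraries and scn1lab WT1 among its HOM libraries. The cone transducin gene GNAT2 stood at 9.27, 6.02, 6.77 and 2.13 CPM in dyrk1a HOM and 119, 2.59 and 76.9 CPM in dyrk1a WT, and at 9.95, 74.3 and 16.9 CPM in scn1lab HOM and 2.37, 576 and 274 CPM in scn1lab WT. The part of leftover eye tissue in these shares was not tested.

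Lists of immune genes had positive medians in scn1lab and medians closer to 0 in dyrk1a. Over 57 microglia and macrophage genes the medians were 0.00 in dyrk1a and 0.77 in scn1lab (7 higher and 1 lower past the threshold in scn1lab), over 14 neutrophil genes 0.08 in dyrk1a and 1.25 in scn1lab (4 higher), and over 41 interferon and antigen presentation genes 0.19 in dyrk1a and 0.82 in scn1lab (9 higher). For 46 cytokine, chemokine and NF-kB genes they were 0.15 in dyrk1a and 0.59 in scn1lab (3 higher), and for 39 complement and coagulation genes 0.13 in dyrk1a and 1.77 in scn1lab (0 past the threshold). Of all genes 4.6% were higher past the threshold in scn1lab. The share was 12.3% in the microglia list, 28.6% in the neutrophil list and 22% in the interferon list. The cytokine share, 6.52%, was near that of all genes. Liver makes most complement proteins, and the part of digestive tissue RNA in the complement values was not tested. The complement median in scn1lab changed sign without HOM1 and HOM3, the libraries of over 10% digestive share. Without both it was -5.25, and the difference, -1.70, turned to 5.42; its sign also turned with the digestive share as a covariate. As the mean log2(CPM + 1) over the list, complement stood at 5.73, 1.14 and 5.36 in scn1lab HOM1, HOM2 and HOM3, against 3.01, 4.57 and 1.87 in scn1lab WT, so HOM2 was below every WT library. On the same scale the microglia list stood at 3.89, 3.21 and 3.84 in scn1lab HOM and 3.04, 3.27 and 2.99 in scn1lab WT, with HOM2 among the WT libraries, and its scn1lab median without HOM1 and HOM3 was 0.21. The neutrophil list stood at 4.73, 3.65 and 3.98 in scn1lab HOM and 3.24, 3.16 and 3.14 in scn1lab WT. For it, the interferon list and the cytokine list every scn1lab HOM library, HOM2 included, was above every scn1lab WT library. No member of the 5 lists passed for the difference. The macrophage lysosomal gene cd68 stood at 127, 148, 173 and 103 CPM in dyrk1a HOM and 106, 80.4 and 92 CPM in dyrk1a WT, and at 218, 184 and 128 CPM in scn1lab HOM and 53.8, 71.7 and 42.8 CPM in scn1lab WT, which is 0.57 in dyrk1a (unadjusted p = 0.033) and 1.65 in scn1lab (edgeR adjusted p = 0.00341). Its difference was -1.09 (edgeR adjusted p = 0.163).

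Glial lists had negative medians in scn1lab, and the oligodendrocyte list had members past the threshold in both directions. Of 46 astroglia and radial glia genes 12 fell past the threshold in scn1lab (median -0.52, against 0.00 in dyrk1a), and of 31 oligodendrocyte and myelin genes 9 fell and 4 rose (median -0.52, against 0.13 in dyrk1a). Of all genes 7.93% fell and 4.6% rose past the threshold in scn1lab. No member of either glial list passed for the difference. Nearest were the astroglial secreted protein gene mfge8a, at 2.0 (edgeR adjusted p = 0.0834), and the oligodendrocyte factor gene znf488, at 2.66 (edgeR adjusted p = 0.0834), both with most of the difference in scn1lab, where mfge8a had an effect of -2.05 and znf488 one of -2.43.

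The remaining lists held 0 members past the threshold for the difference except BTG2 among 44 p53 and apoptosis genes (2.27%, against 0.183% of all genes). Their medians were 0.16 in dyrk1a and 0.21 in scn1lab for those genes (5 higher, 1 lower past the threshold in scn1lab), and 0.22 in dyrk1a and 0.28 in scn1lab for 59 genes of the integrated stress response and chaperones (8 higher, 4 lower). For 34 glucocorticoid response genes they were 0.28 in dyrk1a and 0.08 in scn1lab (2 lower), for 70 glycolysis and hypoxia genes -0.19 in dyrk1a and 0.05 in scn1lab (1 higher, 14 lower), and for 33 cholesterol synthesis genes 0.14 in dyrk1a and 0.27 in scn1lab (2 higher, 1 lower). For 42 circadian clock genes they were -0.17 in dyrk1a and -0.47 in scn1lab (7 lower), for 74 autism risk genes -0.05 in dyrk1a and -0.43 in scn1lab (14 lower), and for 43 DYRK kinases and their partners -0.03 in dyrk1a and -0.21 in scn1lab (9 lower). Over all genes 4.6% were higher and 7.93% lower past the threshold in scn1lab. The counts of lower genes in the p53, stress, glucocorticoid and cholesterol lists did not exceed that share. The higher genes of the cholesterol list, 6.06%, were near the 4.6%. The median difference was 0.45 over the autism risk genes, with 59 of 74 above 0, and 0.27 over the DYRK list, with 30 of 43 above 0. HOM lay below WT without overlap for 3 of the 74 autism risk genes in dyrk1a and 34 in scn1lab. For the 43 DYRK genes the counts were 3 in dyrk1a and 18 in scn1lab. Over all genes the shares were 3.67% in dyrk1a and 19.8% in scn1lab, and the dyrk1a count of autism risk genes is near that share. HOM lay above WT without overlap for 4 autism risk genes and 5 DYRK genes in dyrk1a, against 3.84% of all genes. In scn1lab HOM lay above WT for 3 autism risk genes and 5 DYRK genes, against 15.7% of all genes. Among stress genes DDIT3, a transcription factor of the unfolded protein response, had effects of 0.84 in dyrk1a (unadjusted p = 0.000271) and -0.30 in scn1lab.

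Lists of other head tissues held 0 members past the threshold for the difference apart from the skin and pigment genes above. The medians were -0.04 in dyrk1a and 5.23 in scn1lab for 50 digestive organ genes (2 higher past the threshold in scn1lab), and -0.15 in dyrk1a and 4.46 in scn1lab for 37 lens genes (0 past it). For 45 cartilage and bone genes they were -0.02 in dyrk1a and -0.40 in scn1lab (1 lower), for 47 endothelium genes 0.05 in dyrk1a and 0.18 in scn1lab (1 higher, 2 lower), for 23 erythrocyte genes 0.34 in dyrk1a and 0.25 in scn1lab (1 higher, 1 lower), and for 63 skeletal muscle genes 0.10 in dyrk1a and 0.07 in scn1lab (1 lower). None of these counts exceeds the share of all genes past the threshold in scn1lab, 4.6% higher and 7.93% lower. The digestive median follows the shares of scn1lab HOM1 and HOM3, and the highest lens share of all libraries was that of scn1lab HOM2. Over the 44 lists, the sign of the median difference was the same in every alternative for 35.

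**Figure D5:**
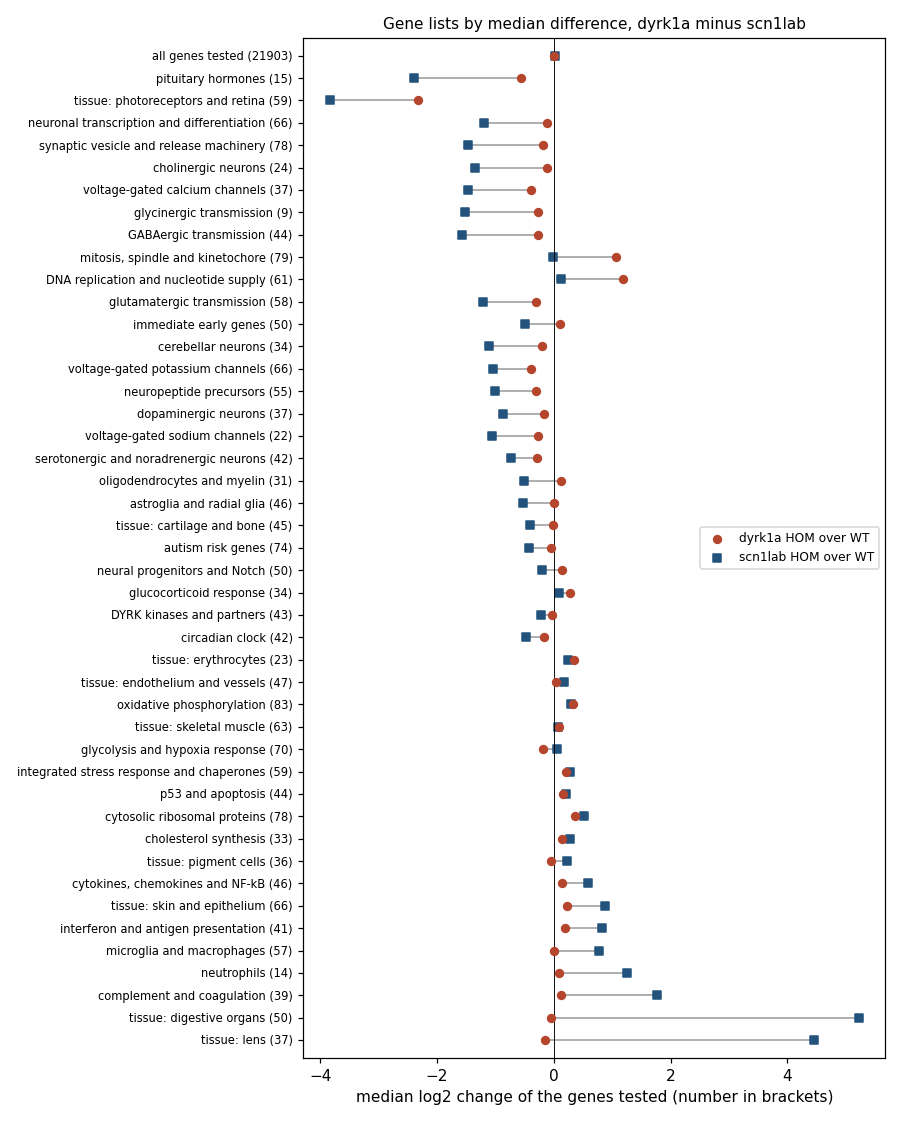
Median log2 effect of HOM over WT per gene list, circles for dyrk1a and squares for scn1lab, ordered by the median difference, with the number of genes tested in brackets. The lists of nerve cell transmission, channels, transcription and hormones have squares at -0.73 to -2.40 and circles at -0.11 to -0.57, while the replication and mitosis lists have circles at 1.18 and 1.06 and squares near 0.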

How the data were processed

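The deposited values are raw gene counts from bulk RNA-seq, 1 table per library, whole numbers for the same 32020 gene IDs. Per the submitters' processing notes, Trim Galore 0.5.0, HISAT2 2.1.0, StringTie 1.3.3b and DESeq2 1.22.1 were used with GRCz11. Whether strand was used in counting is not given in the sources used here, so overlapping and antisense genes, and near-identical copies, cannot be separated. Symbols came from a supplied name table: 28975 IDs had one, 3045 had none, and 5966 shared theirs with another ID.

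In R 4.3.3, edgeR 4.0.16 was run on the 13 libraries in 1 fit of 4 groups, with filterByExpr, TMM scaling and robust quasi-likelihood F tests (two-sided), and Benjamini-Hochberg adjustment over all 21903 genes tested at 0.05. The standard error (SE) was computed back from the test, as |log2 change| over the root of F. CPM (counts per M) use TMM-scaled library sizes, with factors from 0.683 in scn1lab HOM3 to 1.183 in dyrk1a HOM3. Shares of counts are per total counts, and no 95% Wilson bound lay further than 0.02 percentage points away. The floor for a gene at 0 is 3 counts per library. Intervals and floors cover counting error only. No library pair was identical, and Spearman's rho between libraries of a group ran from 0.832 to 0.956.

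The 44 gene lists are those whose results the text gives. Of 2274 entries, 1543 matched a symbol as written and 556 once a paralog letter was dropped; 175 found no match. Named genes are the targeted genes, up to 12 each way with the largest log2 difference past the threshold and a mean CPM of at least 1, up to 8 each way most alike in both lines and up to 4 each way opposite, the members of each list with the smallest p, and defining list members. The comparison, the lists and this rule were chosen with earlier results of these data known, and members are described by counts and medians rather than by a set test. On simulated counts with 50 changed genes per size and 21453 genes, the difference test recovered 0%, 30%, 60% and 72% at log2 differences of 1, 2, 3 and 4, with 3 false among 84 calls. The simulation changed scn1lab HOM alone, drew genes independently and held no uneven tissue RNA, so its rates need not hold for these libraries. Alternatives were DESeq2 1.42.0, limma-voom 3.58.1, other fits, scalings and filters, and leaving out libraries. The chd8 line that the protocol names was not analysed here.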

Additional observations from a re-analysis of the deposited data

Results flagged for a closer look

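The tested difference between the homozygous effects of the lines (dyrk1a minus scn1lab) passed the threshold in 46 genes. Among immediate early genes the log2 differences were 5.46 for egr4, 4.89 for FOS, 3.54 for BTG2, 3.01 for ier2b, 2.37 and 1.84 for the JUNB IDs and 1.63 for egr1. Among nerve cell genes they were 3.38 for gabrz, 3.25 for GPR158, 2.34 for pmchl, 2.32 for FOXB1, 2.27 for SYT2, 2.21 for map6b and 1.86 for SNAP25. For other transcription factors they were 2.08 for TFAP2D, 1.96 for TFAP2B, 1.95 for SCRT1, 1.73 for TFAP2E and 1.68 for EBF3. MAP4K4 had 2.88 and bmf2 had 1.88. The fitted values of 8.13 for C1QL2 and 7.95 for smtlb depend on the fit's prior count, since both are at 0 in scn1lab HOM, and are no bounds. Below 0 were stat6 at -1.28, KRT222 at -1.54, BAIAP2L1 at -1.56, anxa1c at -2.37, pmela at -2.51 and TYRP1 at -2.54.

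In 5 of 63 genes named here, 1 of the 4 dyrk1a HOM libraries lay far from the other 3, where chance gives about 1 in 20. They were smtlb at 2.97 CPM and npvf at 11.6 CPM in HOM5, and MAP4K4 at 28.7 CPM, DDIT3 at 568 CPM and PRIM1 at 6.24 CPM in HOM3. The other 3 libraries stood at 1.31 to 1.46 CPM for smtlb, 14.9 to 16.2 CPM for MAP4K4 and 11.1 to 11.9 CPM for PRIM1.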

How the results depend on the processing

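The number of genes past the threshold for the difference, 46, was 6 with all 19 libraries in the fit, 1060 with DESeq2, 27 with limma-voom, 22 without robust moderation, 12 with the digestive share as a covariate and 12 without the libraries of over 10% digestive share. It was 33 with no low count filter, 35 with RLE size factors, 45 with TMM computed without tissue genes and 46 with a CPM filter. Leaving out 1 library gave 5 to 245. In dyrk1a the count of 0 became 145 with DESeq2 and ran from 0 to 3 without 1 library. In scn1lab 2744 became 1278 with all 19 libraries, 4461 with DESeq2, 721 with the covariate and 89 without the high-digestive libraries, and ran from 786 to 3166 without 1 library. Spearman's rho of the effects was 0.255 with no filter and 0.195 without the high-digestive libraries, and 0.207 to 0.354 without 1 library; the same-sign share was 58.7% without the high-digestive libraries and 56.8% to 64% without 1 library. Genes called in both lines numbered 0, 21 with DESeq2 and 0 to 1 without 1 library. The cause of these shifts was not tested. The difference of scn1lab (ENSDARG00000062744), 0.27 and not past the threshold, reversed to -0.089 without the high-digestive libraries and ran from -0.08 to 0.466 without 1 library. Of the alternatives for 229 single genes and list medians, 4098 values kept their direction and side of the threshold or their size, 794 list medians moved, 716 calls were lost, 18 were gained and 3 reversed. The median of all differences, 0.03, lay between -0.039 and 0.102 over the alternatives.

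With the replicate number as a block, 8 genes passed for the difference, 12 in dyrk1a, 1694 in scn1lab and 3 in both lines, rho was 0.372 and the same-sign share 66%, and the difference of scn1lab (ENSDARG00000062744) reversed to -0.083. No label says that the numbers pair the samples. Correlations of same-numbered libraries' deviations were 0.151, -0.323 and -0.252 in scn1lab and -0.051 and 0.028 in dyrk1a. Pairs of unlike number ran from -0.347 to 0.454 in scn1lab and from -0.142 to 0.2 in dyrk1a. The correlations thus show no pairing, and so few cannot exclude it. Only 2 numbers occur in both dyrk1a groups, so the blocked dyrk1a effect rests on HOM1 and HOM2 against WT1 and WT2. dyrk1a HOM3, HOM5 and WT4 do not inform it. Of the 46 genes 2 passed under the block; pmchl (ENSDARG00000076978) did not (edgeR adjusted p = 0.108). The dyrk1a medians were lowest under the block, at -0.66 for synaptic and GABAergic genes, -0.94 for glutamatergic genes and -0.90 for calcium channels. The libraries left to inform these medians had low values. As the mean log2(CPM + 1) over the GABAergic list, dyrk1a HOM1 and HOM2 stood at 3.465 and 3.423, and HOM3 and HOM5 at 4.071 and 3.998.

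Depth was 16.2 to 25.2 M counts. In the simulated test of the difference, with 21453 genes and the same library numbers, log2 differences of 1 were recovered in 0% and of 2 in 30% of cases. Recovery by expression level, or with tissue RNA as uneven as in scn1lab HOM, was not tested.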
